A study of Mus musculus with 12 samples.

Results

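A set of 10 genes of the mTORC1 and AMPK energy sensing pathways were followed by RNA-seq in FL5.12 MycER cells (FLMycER), namely Ddit4, Sesn1, Sesn2, Sesn3, Eif4ebp1, Tsc1, Tsc2, Prkaa1, Prkab1 and Rragd. They were taken by name, as 10 of the 21671 genes in the deposited table, and all 10 were found. FL5.12 is an interleukin-3 dependent murine line of lymphoid precursors from BALB/c mice, and every group, controls included, carried a retroviral MycER transgene, a constitutively expressed MYC fusion protein that 4-hydroxytamoxifen (OHT) activates. The cells were antibiotic-selected transductants of a single line, so that no group here lacked MycER and an action of OHT apart from MycER cannot be told apart from one through it. The 4 conditions, with 3 biological replicates each, were untreated cells, cells given 100 nM OHT for 72 h (OHT), cells exposed for 24 h to 135 nM IACS-010759, which blocks mitochondrial complex I (IACS), and a combination in which 48 h of OHT priming preceded 24 h of both compounds (OHT_IACS). The methods state that cells were passaged in medium of reduced glucose ahead of experiments with IACS-010759, while the sample labels speak of normal growth medium.

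mTORC1 is a kinase complex on the lysosome that promotes protein synthesis and growth when amino acids, growth factors and energy are at hand. It is switched on by the small GTPase Rheb and recruited by the Rag GTPases, whereas the TSC complex (Tsc1, Tsc2) turns Rheb off. AMPK is the kinase that senses a low energy charge, and it restrains mTORC1 through TSC2. Stress-induced proteins act on the same circuit. DDIT4 (REDD1) works through the TSC complex, and the sestrins bind the GATOR2 complex that feeds into the Rags. When mTORC1 is active, it phosphorylates the translational repressor 4E-BP1, the product of Eif4ebp1. Complex I inhibition lowers mitochondrial ATP production. In FLMycER cells, however, the paper found the ratio of ATP to ADP unchanged by either compound until cell death set in. The comparisons below ask how the transcripts of this circuit differed with the inhibitor, with MycER activation and with both.

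Levels are given as RPKM, that is, reads on a gene scaled by its length in kilobases and by the total of the library. Differences are log2 fold changes of log2(RPKM + 0.1) from limma, tested two-sided, with p-values adjusted by Benjamini-Hochberg over the 9745 genes that reached an RPKM of 1 in at least 3 libraries. With the pseudocount of 0.1, the changes of weakly expressed genes come out smaller than they are. A gene is said to have risen or fallen where its adjusted p was under 0.05. Of the 10 genes, 7 passed this filter and 3 did not (Sesn3, Prkab1 and Rragd). Levels refer to the RNA of a whole culture, so that fewer cells expressing a gene and less of its RNA per cell cannot be told apart.

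The library totals behind the RPKM ran from 10376530 to 14550158 reads, and those assigned to genes from 4199266 to 5762340. OHT replicates 1 and 3 were the smallest libraries, at 0.776 and 0.805 of the total of untreated replicate 1, while OHT replicate 2 was at 1.04. Read numbers did not scale evenly with these totals. The median within-condition slope of log2 reads on the log2 total was 1.39 over 4354 genes with fewer than 0.1 reads per base and 0.59 over 680 genes with 0.5 to 1, where 1 would be proportional. This bears on the OHT comparison below. The same slope was 1.65 for Ddit4, 1.62 for Tsc2, 1.51 for Sesn1, 1.48 for Tsc1, 1.23 for Sesn2, 0.95 for Prkaa1 and 0.46 for Eif4ebp1. Of 12 pro-B and progenitor markers, 5 had a mean of at least 1 RPKM (Cd79a, Cd79b, Ptprc, Il3ra and Csf2rb), while Vpreb2, Pax5 and Kit were at 0 in every library. Myeloid and erythroid genes were also present. The summed RPKM of 7 myeloid markers, of which 4 had a mean of at least 1, ran from 59.3 to 61.7 in untreated cells, from 39.8 to 46.8 with OHT, from 46.4 to 57.7 with IACS and from 36.0 to 40.7 with OHT_IACS. That of 4 erythroid markers, all 4 with a mean of at least 1, ran from 95.8 to 99.8, from 106.0 to 116.0, from 76.2 to 81.0 and from 88.2 to 88.3 in the same order. Their part in the results below was not tested. Among 5 T cell markers 1 (Cd3g) had a mean of at least 1 and Cd3e was at 0 throughout, and none of 3 stromal markers had one.

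The clearest changes were those of a pair of stress-induced inhibitors of mTORC1, Ddit4 and Sesn2. Ddit4 rose with OHT, rose with IACS-010759 and was highest with both, whereas Sesn2 rose with IACS-010759 in both primed and nonprimed cells and did not pass the test with OHT. Of the TSC complex, Tsc2 rose with IACS-010759 in primed cells and Tsc1 passed no test. The promoters of Ddit4 and Sesn2 are shown first, since both genes are known targets of stress-responsive transcription factors.

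The windows searched were the 250 bases before each RefSeq start (GRCm38.p6), of which 9 of the 10 genes had at least 1, giving 10 windows because Sesn1 has 2. The CCAAT box (CCAAT, read on both strands) lay in 5 of the 10 windows, and in 33.8% of all 32851 windows of this length. The windows of Ddit4 and Sesn2 held 2 each, and 10.1% of all windows held 2 or more. That of Sesn3 held 4, at 216, 208, 96 and 79 bases before the start. The CCAAT boxes of these genes lay on the opposite strand and so read ATTGG in capitals below. The stretches run from 250 to 71 bases before the start, in the direction of transcription. That of Ddit4 is chr10:59951841-59952020 on the minus strand, with boxes that begin 170 and 137 bases before the start. That of Sesn2 is chr4:132510527-132510706 on the minus strand, with boxes 157 and 93 bases before it.
Ddit4: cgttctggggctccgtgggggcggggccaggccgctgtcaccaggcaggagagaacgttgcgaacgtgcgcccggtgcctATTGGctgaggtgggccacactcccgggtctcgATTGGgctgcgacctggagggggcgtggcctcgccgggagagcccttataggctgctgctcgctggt
Sesn2: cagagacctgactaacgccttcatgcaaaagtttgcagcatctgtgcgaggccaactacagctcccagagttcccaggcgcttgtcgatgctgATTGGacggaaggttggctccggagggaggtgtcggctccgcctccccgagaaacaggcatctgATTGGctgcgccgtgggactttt

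A further pair of motifs were searched in the 10 windows on both strands. The amino acid response element that ATF4 and C/EBP factors bind, written TGATGNAA, was in 0 of 10, against 3.45% of all windows. The canonical E-box CACGTG, which MYC and MAX bind, was in 0 of 10, against 6.02% of all windows. These counts speak only of the letters in the 250 bases searched, which leave out the gene bodies and more distant elements.

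Ddit4 encodes REDD1, an inhibitor of mTORC1 induced by hypoxia, energy stress and DNA damage. Its level was 9.85, 8.65 and 11.1 RPKM in untreated replicates 1, 2 and 3, 14.5, 18.5 and 15.0 with OHT, 16.5, 17.9 and 15.6 with IACS, and 19.8, 24.0 and 22.6 with OHT_IACS. All 9 treated libraries thus lay above all untreated ones, and the OHT_IACS libraries lay above those of either single treatment. The group means rose in the order untreated (9.86 ± 1.22 RPKM, SD, n = 3), OHT (16.0 ± 2.15), IACS (16.7 ± 1.12) and OHT_IACS (22.1 ± 2.15), where the neighbours OHT and IACS overlapped. On the log2 scale Ddit4 rose by 0.67 with OHT (SE 0.095, 95% interval 0.46 to 0.87, limma adjusted p = 0.00013) and by 0.73 with IACS (SE 0.095, 0.52 to 0.93, limma adjusted p = 0.00026). In size the latter stood 157th among the 9745 genes. IACS-010759 raised it further in OHT-primed cells, by 0.47 (0.27 to 0.68, limma adjusted p = 0.0038), and OHT raised it in IACS-treated cells by 0.41 (0.21 to 0.62, limma adjusted p = 0.0063). The response to IACS-010759 was 0.26 lower on the log2 scale in primed than in nonprimed cells, but this interaction did not pass the test (95% interval -0.55 to 0.03, limma adjusted p = 0.46). Between 212 and 477 reads lay on the gene, and all 4 calls held with any 1 library left out and under each other setting tried.

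**Figure D1:**
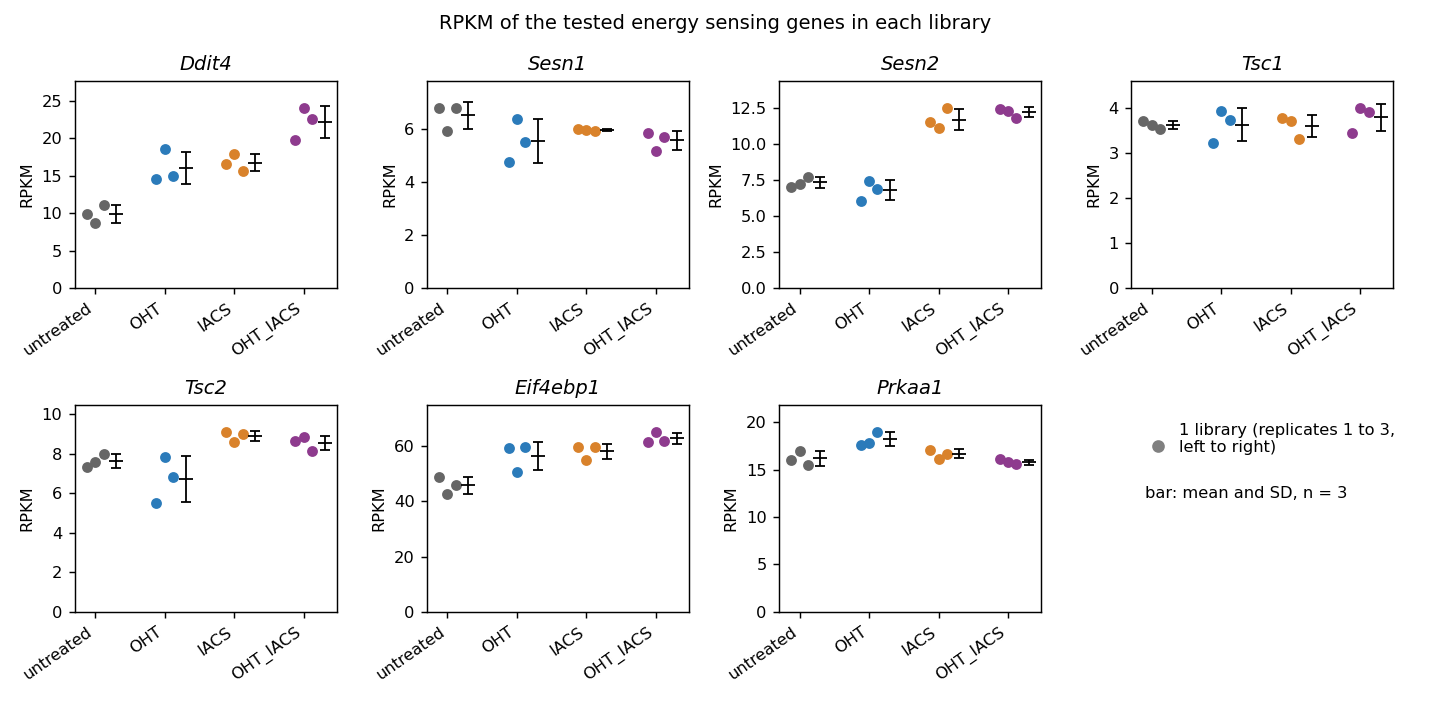
RPKM as deposited (vertical axes, from 0) of the 7 tested genes in each of the 12 libraries, 1 point a library in the order of replicates 1 to 3, with the mean and SD (n = 3) as a bar beside them. Ddit4 climbs from 8.65 to 11.1 RPKM in untreated cells to between 19.8 and 24.0 with OHT_IACS, Sesn2 is at 11.1 or above in all 6 libraries with IACS-010759 and at 7.74 or below in the other 6, and Tsc1 stays between 3.23 and 4.01.

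The 3 sestrins are stress-induced proteins that bind GATOR2, and Sesn2 encodes a leucine sensor. Sesn2 stood at 7.03, 7.26 and 7.74 RPKM in untreated cells, at 6.08, 7.47 and 6.87 with OHT, at 11.5, 11.1 and 12.5 with IACS, and at 12.4, 12.3 and 11.8 with OHT_IACS. The libraries fell into 2 sets that did not overlap, the 6 with IACS-010759 and the 6 without, and within each set the OHT and non-OHT libraries overlapped. Sesn2 rose with IACS-010759 by 0.63 on the log2 scale in nonprimed cells (SE 0.07, 95% interval 0.48 to 0.78, limma adjusted p = 6.6e-05), a fold of 1.55. In primed cells it rose by 0.83 (SE 0.07, 0.68 to 0.98, limma adjusted p = 4e-06), a fold of 1.78, which stood 141st in size among the 9745 genes. The difference between these responses was 0.2 and did not pass the test (-0.01 to 0.41, limma adjusted p = 0.43). With OHT alone its log2 fold change was -0.13 (-0.28 to 0.02, limma adjusted p = 0.15), and without OHT replicate 2 it was -0.19 and passed (limma adjusted p = 0.048). In IACS-treated cells the change with OHT was 0.07 (-0.08 to 0.22, limma adjusted p = 0.53). Both rises with IACS-010759 kept their calls under all settings tried.

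Sesn1, known as a p53 target, was the lower of the sestrins with reads. It was at 6.78, 5.93 and 6.77 RPKM in untreated cells, at 4.73, 6.37 and 5.51 with OHT, at 6.0, 5.96 and 5.92 with IACS, and at 5.83, 5.15 and 5.69 with OHT_IACS. OHT replicate 2 lay among the untreated libraries and the other two OHT libraries below them. Sesn1 fell by 0.26 on the log2 scale with OHT (95% interval -0.45 to -0.06, limma adjusted p = 0.039), and its slope on the library total was 1.51. The call was lost under 6 of 11 other settings. The change was -0.15 with the library total (log2) as a covariate (limma adjusted p = 0.34), and limma adjusted p was 0.064 without a filter, 0.072 with RPKM as deposited, 0.059 with quantile normalization and 0.073 with only the compared groups. It also lost the call when untreated replicate 1 (-0.22, limma adjusted p = 0.12), untreated replicate 3 (-0.23, 0.12), OHT replicate 1 (-0.17, 0.15) or OHT replicate 3 (-0.24, 0.099) was left out. With IACS-010759 the log2 fold change was -0.15 in nonprimed cells (-0.34 to 0.04, limma adjusted p = 0.29) and 0.01 in primed cells (-0.18 to 0.21, limma adjusted p = 0.93), so that Sesn1 did not pass the test where Sesn2 rose. Sesn3 was at 0 RPKM in 11 libraries and held 1 read (0.0332 RPKM) in OHT replicate 2. A count of 0 allows up to 3 reads, or 0.0955 to 0.134 RPKM in these libraries, and no fold is given.

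Tsc1 and Tsc2 encode hamartin and tuberin, the scaffold and the GTPase-activating subunit of the TSC complex. Tsc2 was at 7.3, 7.56 and 7.99 RPKM in untreated cells, at 5.5, 7.84 and 6.83 with OHT, at 9.1, 8.6 and 8.97 with IACS, and at 8.64, 8.81 and 8.12 with OHT_IACS. Every library with IACS-010759 lay above every library without it. OHT spread its 3 libraries wider than any other condition (SD 1.17 RPKM, against 0.26 to 0.359 in the others), with OHT replicate 1 lowest. Tsc2 rose by 0.35 on the log2 scale with IACS-010759 in primed cells (SE 0.086, 95% interval 0.17 to 0.54, limma adjusted p = 0.011), and it did so at 0.24 to 0.46 with any 1 library left out. In nonprimed cells its difference was 0.19 (0.01 to 0.38, limma adjusted p = 0.15). It passed there when only the compared groups were fitted (0.19, limma adjusted p = 0.044) and without OHT replicate 1 (0.19, limma adjusted p = 0.044). The difference between the responses was 0.16 and did not pass the test (-0.1 to 0.42, limma adjusted p = 0.61). With OHT alone the log2 fold change was -0.21 (-0.4 to -0.03, limma adjusted p = 0.068). This passed without OHT replicate 2 (-0.32, limma adjusted p = 0.0045) and with limma voom on the reads (-0.2, adjusted p = 0.04), and it was -0.08 with the library total as a covariate. In the GENCODE vM21 annotation, 693 of the 9620 exonic bases of Tsc2 also lie in exons of Pkd1 on the opposite strand. The libraries were strand-specific, but whether the counting used the strand is not given in the sources used here.

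Tsc1 was the lowest of the tested genes, at 3.72, 3.63 and 3.55 RPKM in untreated cells, 3.23, 3.94 and 3.74 with OHT, 3.79, 3.73 and 3.33 with IACS, and 3.45, 4.01 and 3.92 with OHT_IACS. All 4 groups overlapped. Its log2 fold changes were -0.02 with OHT (95% interval -0.2 to 0.15), -0.04 with IACS (-0.21 to 0.14), 0.06 with IACS-010759 in primed cells (-0.11 to 0.24) and 0.07 with OHT in IACS-treated cells (-0.1 to 0.25), with limma adjusted p values from 0.55 to 0.84. The intervals leave out a rise or fall of the size seen for Ddit4 or Sesn2 with IACS-010759.

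Eif4ebp1 encodes 4E-BP1, which holds back cap-dependent translation until mTORC1 phosphorylates it. With a mean of 55.8 RPKM it was the most abundant of the genes per length, above 96.6% of all genes tested. It stood at 48.9, 42.5 and 46.1 RPKM in untreated cells, at 59.3, 50.5 and 59.5 with OHT, at 59.8, 55.1 and 59.7 with IACS, and at 61.5, 65.2 and 61.9 with OHT_IACS. In RPKM as deposited, all treated libraries lay above the untreated ones and the OHT_IACS libraries above all others, with OHT and IACS overlapping. The distance was small, since OHT replicate 2 (50.5) came close to untreated replicate 1 (48.9), and these groups overlapped once the libraries were scaled. Eif4ebp1 rose by 0.28 on the log2 scale with OHT (95% interval 0.1 to 0.45, limma adjusted p = 0.016) and by 0.32 with IACS (0.14 to 0.49, limma adjusted p = 0.017). The differences of OHT_IACS from OHT (0.16, -0.01 to 0.33, limma adjusted p = 0.16) and from IACS (0.12, -0.05 to 0.29, limma adjusted p = 0.31) did not pass.

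These changes of Eif4ebp1 depended on the libraries used. Its slope on the library total was 0.46, and with that total as a covariate the OHT change was 0.09 (limma adjusted p = 0.17), whereas the IACS change was 0.21 and passed, and so did the difference of OHT_IACS from OHT (0.18, limma adjusted p = 0.0031). The rise with OHT lost its call without untreated replicate 2 (0.22, limma adjusted p = 0.079), OHT replicate 1 (0.22, 0.059) or OHT replicate 3 (0.25, 0.064). The rise with IACS lost it without untreated replicate 2 (0.27, limma adjusted p = 0.077), untreated replicate 3 (0.32, 0.052), IACS replicate 1 (0.31, 0.053) or IACS replicate 3 (0.28, 0.065).

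**Figure D2:**
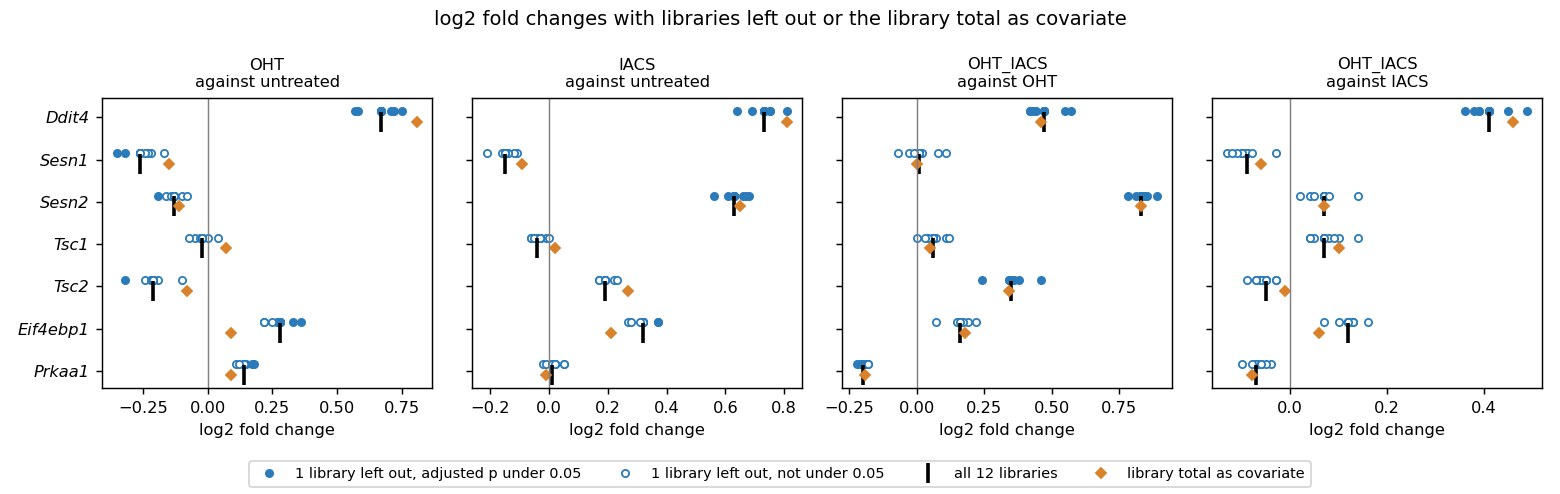
Log2 fold changes (horizontal axes) of the 7 tested genes in 4 comparisons with all 12 libraries (bar), with each library left out in turn (circles, filled where the adjusted p was under 0.05) and with the library total (log2) as a covariate (diamond). For Ddit4 the circles are filled in all 4 panels, whereas those of Sesn1, Eif4ebp1 and Prkaa1 with OHT are mixed and the diamond of Eif4ebp1 moves from 0.28 to 0.09.

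AMPK is a trimer of a catalytic alpha, a scaffolding beta and a nucleotide-binding gamma subunit, and Prkaa1 encodes the alpha-1 chain. Prkaa1 was at 16.0, 17.0 and 15.5 RPKM in untreated cells, at 17.6, 17.8 and 19.0 with OHT, at 17.1, 16.1 and 16.7 with IACS, and at 16.1, 15.8 and 15.6 with OHT_IACS. The OHT libraries were the highest 3 of the 12. Prkaa1 rose by 0.14 on the log2 scale with OHT (95% interval 0.04 to 0.25, limma adjusted p = 0.036), a fold of 1.11. In primed cells it fell by 0.2 with IACS-010759 (95% interval -0.3 to -0.09, limma adjusted p = 0.013), a fold of 0.873. In nonprimed cells the difference with IACS-010759 was 0.01 (-0.09 to 0.12, limma adjusted p = 0.87). The interaction was -0.21 (-0.36 to -0.06), with an unadjusted p of 0.0099 in limma but an adjusted p of 0.25, and it is not counted as a change. The rise with OHT was lost under 5 of 11 other settings, among them the library total as a covariate (0.09, limma adjusted p = 0.29), quantile normalization (0.13, 0.084), no mean-variance trend (0.14, 0.055) and only the compared groups (0.15, 0.056). It was lost as well without untreated replicate 1 (0.14, limma adjusted p = 0.091), untreated replicate 3 (0.11, 0.15), OHT replicate 1 (0.14, 0.07) or OHT replicate 3 (0.12, 0.12). The fall in primed cells held in all fits but those with quantile normalization (-0.15, limma adjusted p = 0.051) or without OHT replicate 3 (-0.18, limma adjusted p = 0.052).

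Prkab1, the beta-1 subunit, held at most 3 reads in any library. Its reads in replicates 1, 2 and 3 were 1, 0 and 2 in untreated cells, 0, 0 and 0 with OHT, 3, 2 and 0 with IACS, and 0, 3 and 2 with OHT_IACS. Its level ran from 0 to 0.124 RPKM, at or near the 0.101 to 0.141 RPKM that 3 reads are worth here, so that no difference between conditions was detectable at this depth. Rragd, which encodes the Rag GTPase RagD, was likewise at 0 to 0.0437 RPKM, with at most 3 reads. The gene models used for counting are not given in the sources used here, so it is not known whether they cover the transcripts of Prkab1, Rragd and Sesn3 made in these cells. The low values are those of the table and do not show that the genes were silent.

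Set beside their paralogues, the genes at the bottom of the range had a family member with reads. For the AMPK beta subunits, Prkab2 stood at 2.12 ± 0.192 RPKM in untreated cells (SD, n = 3) and at 1.98 to 2.2 on average in the other conditions. Prkaa2, the alpha-2 chain, was at 0 in every library, and Prkag1 (gamma-1) was the most abundant subunit, at 39.0 ± 0.596 RPKM in untreated cells. Prkag1 fell with OHT by 0.17 on the log2 scale (SE 0.04, limma adjusted p = 0.0046) and with IACS-010759 in primed cells by 0.17 (SE 0.04, limma adjusted p = 0.0074), to 31.1 ± 0.768 RPKM with OHT_IACS. Prkag2 stood at 2.13 ± 0.0593 RPKM in untreated cells and passed no test. Of the Rags, Rraga was at 12.3 ± 0.504 RPKM in untreated cells, Rragb at 5.88 ± 0.21 and Rragc at 14.3 ± 0.108. Rragb rose with OHT by 0.73 on the log2 scale (SE 0.061, limma adjusted p = 1.7e-06) and in IACS-treated cells by 0.76 (SE 0.061, limma adjusted p = 1.5e-06), reaching 9.96 ± 0.73 RPKM with OHT. Eif4ebp2 was the other 4E-BP with reads and rose with OHT by 0.3 (SE 0.084, limma adjusted p = 0.013), and Eif4ebp3 reached at most 0.498 RPKM.

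**Figure D3:**
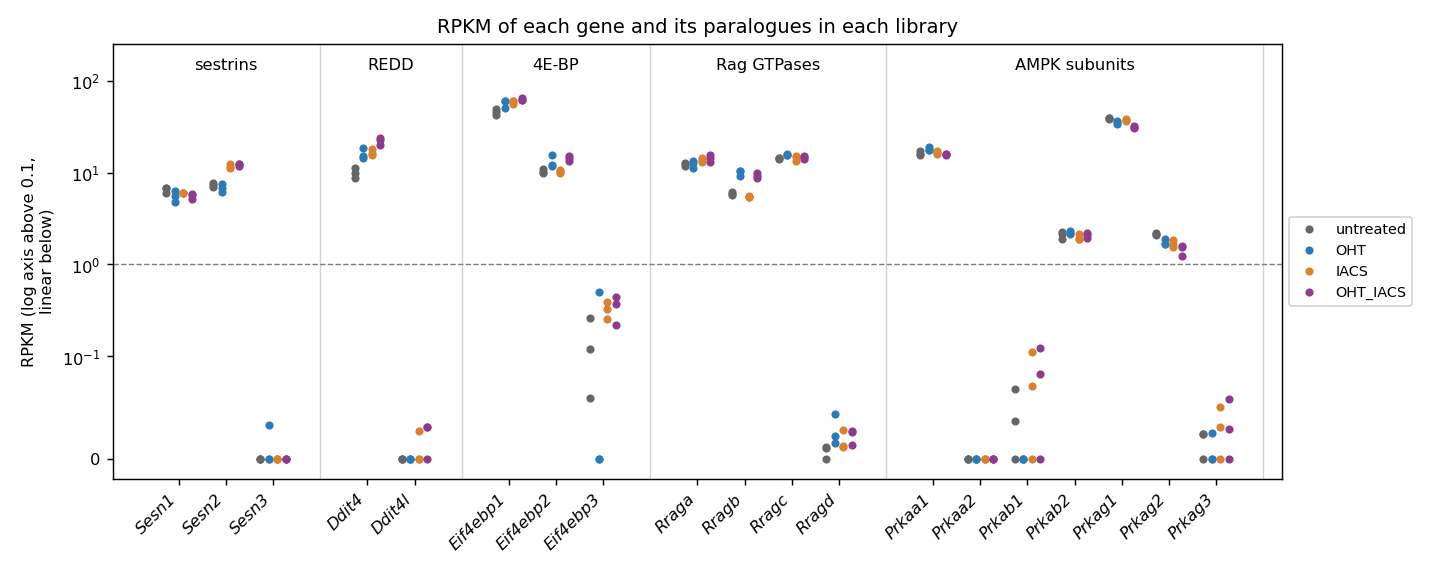
RPKM (vertical axis, logarithmic above 0.1 and linear below) of the genes and their paralogues in each of the 12 libraries, coloured by condition, with a dashed line at 1 RPKM. Sesn3, Ddit4l, Rragd, Prkaa2, Prkab1 and Prkag3 lie near or at 0, while Prkag1 is at 30.4 RPKM or above in every library.

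With OHT 4 of the 7 tested genes passed, 3 higher and 1 lower, beside 36.4% of the 9745 genes (18.2% higher and 18.2% lower). With IACS 3 of 7 rose and 0 fell, beside 15.9% of all genes (8.15% higher and 7.74% lower). Between OHT_IACS and OHT 3 rose and 1 fell, beside 23.7% (11.9% higher and 11.8% lower). Between OHT_IACS and IACS 1 rose and 0 fell, beside 26.5% (12.3% higher and 14.3% lower). The interaction called 0 of the 7 genes in limma, and 0 with limma voom on the reads. Of all genes 0.144% were called. At an unadjusted p under 0.05 there was 1 of the 7, Prkaa1, beside 12.7% of all genes. The median log2 fold changes of the 7 genes were -0.02, 0.19, 0.16 and 0.07 in the first 4 comparisons, beside medians of all genes between -0.01 and 0.01. With 7 genes of opposing functions chosen by name, these shares describe the list and nothing more.

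The scaled values of the compared groups did not overlap in 2 of 7 genes with OHT (46.0% of all genes), in 4 with IACS (38.6%), in 5 between OHT_IACS and OHT (36.9%) and in 2 between OHT_IACS and IACS (42.3%). OHT and IACS share the untreated libraries as their control, and each of the treated groups enters more than 1 comparison, so that the comparisons are not independent.

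**Figure D4:**
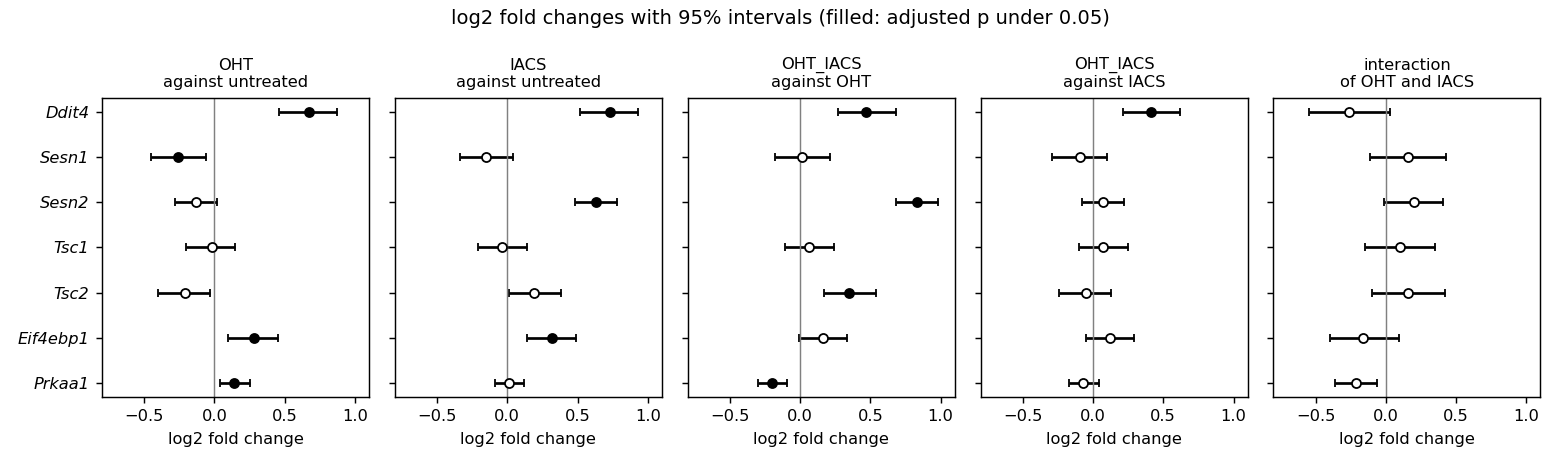
Log2 fold changes (horizontal axes) with 95% intervals of the 7 tested genes in the 5 comparisons, filled where the adjusted p was under 0.05. Ddit4 is filled in 4 panels, Sesn2 in the 2 panels of IACS-010759, and no point is filled for the interaction.

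The rest of the pathway was read from lists that held 80 further genes, of which 77 were in the table and 68 could be tested. With OHT 15 of these rose and 9 fell (35.3%), with IACS 3 rose and 6 fell (13.2%), between OHT_IACS and OHT 3 rose and 8 fell (16.2%), and between OHT_IACS and IACS 13 rose and 6 fell (27.9%). These shares were near or under those of all genes. None of the 68 passed the interaction in limma, and 7 were at an unadjusted p under 0.05, where 12.7% of all genes were.

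Among the subunits of mTORC1, 2 of 5 rose with OHT and 3 of 5 rose with OHT in IACS-treated cells, beside 18.2% and 12.3% of all genes. Deptor, an inhibitory subunit, rose by 1.29 on the log2 scale with OHT (SE 0.17, limma adjusted p = 8.3e-05), from 0.511 ± 0.0887 to 1.41 ± 0.132 RPKM (SD, n = 3). It reached an RPKM of 1 only with OHT and OHT_IACS, and stood at 0.382 to 0.428 RPKM with IACS. Deptor thus passed the filter only through the groups where it was high, and the counts above include it. In IACS-treated cells it rose by 1.13 (SE 0.17, limma adjusted p = 0.00038). Akt1s1, the inhibitory subunit PRAS40, rose by 0.24 and 0.34 in the same comparisons, and the kinase gene Mtor rose by 0.39 in the latter. Neither comparison with IACS-010759 called a subunit in limma, with 0 of 5 at an unadjusted p under 0.05 in nonprimed cells and 3 of 5 in primed cells, beside 30.5% and 37.2% of all genes.

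Rheb, the GTPase that activates mTORC1 and that TSC2 acts on, rose with OHT (0.31, SE 0.06, limma adjusted p = 0.0014) and with IACS (0.24, SE 0.06, limma adjusted p = 0.015). Its level was 17.7, 15.9 and 17.4 RPKM in untreated cells, and 22.7, 25.1 and 23.5 with OHT_IACS. Among Rag GTPases and the Ragulator complex that anchors them, 2 of 9 rose and 2 fell with OHT, beside 18.2% of all genes in each direction. Lamtor2 fell by 0.33 (SE 0.087, limma adjusted p = 0.01). With IACS none of the 9 passed in limma, and 4 were at an unadjusted p under 0.05, beside 30.5% of all genes. Of 14 GATOR, KICSTOR and folliculin genes, which relay amino acid supply to the Rags, 3 rose with OHT (Seh1l, Wdr59 and Sec13) and 2 with IACS (Mios and Wdr59), beside 18.2% and 8.15% of all genes. None of the 14 fell in limma in either comparison, beside 18.2% and 7.74% of all genes. In primed cells Nprl3, a subunit of the Rag inhibitor GATOR1, rose by 0.34 with IACS-010759 (SE 0.072, limma adjusted p = 0.005) and Seh1l fell by 0.24 (SE 0.05, limma adjusted p = 0.0047).

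Among the mTORC1 effectors other than Eif4ebp1, 4 of 12 rose with OHT, beside 18.2% of all genes. These included Eif4e, the cap-binding factor that 4E-BP1 sequesters (0.27, SE 0.067, limma adjusted p = 0.0065), and Pdcd4, an inhibitor of the helicase eIF4A (0.75, SE 0.15, limma adjusted p = 0.0017). With IACS-010759, Lpin1, a phosphatidate phosphatase under mTORC1 control, fell by 0.76 in nonprimed cells (SE 0.17, limma adjusted p = 0.0094) and by 0.66 in primed cells (SE 0.17, limma adjusted p = 0.015). Lpin1 was at 1.24 to 1.6 RPKM in untreated and OHT cells, 0.639 to 1.03 with IACS and 0.803 to 0.885 with OHT_IACS. It thus passed the filter mainly through the groups where it was high.

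Of 7 kinases and partners upstream of AMPK, 3 fell with IACS and none rose, where 7.74% of all genes fell. They were Camkk1 (by 0.6, SE 0.13, limma adjusted p = 0.0083), Camkk2 (by 0.29, SE 0.069, limma adjusted p = 0.013) and Stk11, which encodes the main AMPK kinase LKB1 (by 0.21, SE 0.056, limma adjusted p = 0.021). Camkk2 also fell with OHT (by 0.36, SE 0.069, limma adjusted p = 0.0012), where Camkk1 and Stk11 did not pass. In primed cells 1 of the 7 fell, beside 11.8% of all genes. This was Stk11 (by 0.19, SE 0.056, limma adjusted p = 0.03), while Camkk1 was at -0.27 (limma adjusted p = 0.15) and Camkk2 at 0.03 (limma adjusted p = 0.77). No interaction of these 3 genes passed (limma adjusted p from 0.21 to 0.91). Among the genes whose products AMPK phosphorylates, Srebf1, a regulator of lipid synthesis, fell with IACS (by 0.28, SE 0.053, limma adjusted p = 0.0034). Srebf1 also fell with OHT (by 0.27, SE 0.053, limma adjusted p = 0.0015), and with IACS-010759 in primed cells it was at 0.03 (limma adjusted p = 0.77). In primed cells Ulk2, an autophagy kinase, rose by 0.61 (SE 0.15, limma adjusted p = 0.0093). Of the mTORC2 subunits tested, Mapkap1 fell with OHT by 0.2 (SE 0.05, limma adjusted p = 0.008).

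**Figure D5:**
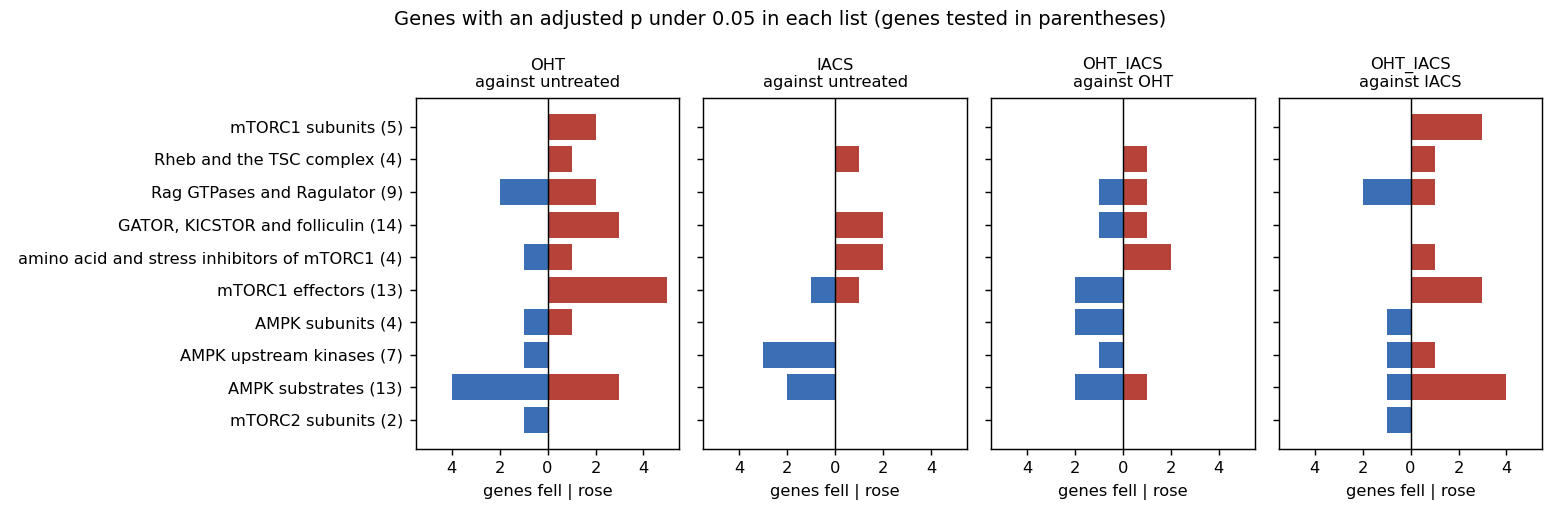
Number of genes (horizontal axes) that rose (right, red) or fell (left, blue) in each of the 10 lists, the 7 tested genes included, in 4 comparisons, with the number tested in parentheses. With IACS the upstream kinases of AMPK hold 3 genes that fell and none that rose, and the mTORC1 effectors with OHT hold 5 that rose. Of all genes, 7.74% fell with IACS and 18.2% rose with OHT.

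For each tested gene, the genes with the most similar profile were found by the root mean square difference of centred log2 values over the 12 libraries, among 9744 others. For Ddit4 these were Fzd4 (0.143) and Taf15 (0.143), beside its own SD of 0.443. For Sesn2 they were Rhbdd1 (0.104) and Cd200r1 (0.106), beside an SD of 0.395. Those of Eif4ebp1 were Eprs (0.048), the glutamyl-prolyl-tRNA synthetase, and Eif3c (0.051), a subunit of translation initiation factor eIF3, beside an SD of 0.189. For Tsc2 they were Rprd2 (0.053) and Dcaf5 (0.053). Sesn1 came closest to Stat2 (0.069) and Trpc2 (0.071), Tsc1 to Pi4kb (0.046) and Snx19 (0.05), and Prkaa1 to Sdccag3 (0.026) and Agps (0.029). For the last 3, whose own SDs were 0.147, 0.078 and 0.089, the profiles vary little and many genes would come near.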

How the data were processed

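Total RNA of 12 libraries, depleted of ribosomal RNA, was sequenced strand-specifically. The authors deposited RPKM per gene and library, and, for their own DESeq2 comparisons, log2 fold changes and adjusted p-values, which were not used here. The submitters' processing notes name the mm9 build, TopHat, TopHat2 2.0.8, SAMtools, featureCounts 1.4.5-p1 and DESeq2, without their roles; the annotation is not given in the sources used here.

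RPKM were scaled by each library's median ratio to per-gene geometric means. Genes reaching a deposited RPKM of 1 in 3 or more libraries were tested with limma 3.58.1 (R 4.3.3) on log2(RPKM + 0.1), with all 12 libraries in 1 fit and a mean-variance trend. Library totals and reads per gene were worked out from the RPKM steps, which gave whole reads (within 0.01) for 15451 of 15451 genes above 0. Over genes with fewer than 0.1 reads per base, replicates of a condition differed by more than sampling noise in all 12 pairs (chi-square per gene from 1.08 to 1.85). Ddit4, Sesn2, Eif4ebp1 and Prkaa1 lay outside this class, and so, only just, did Tsc2 at 0.1 reads per base. What separates replicates is not given beyond "biological", and p-values measure the spread between these samples. The procedure was tested on simulated data. Promoter sequences are those of RefSeq on GRCm38.p6 and exons those of GENCODE vM21, not of mm9.

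The 10 genes and the lists were chosen with earlier results of these data known. Named are the 10 genes, at most 3 called genes per list and comparison with the smallest adjusted p, the 2 most similar profiles per gene, and the paralogues, which were chosen after their values were seen. The alternatives were other pseudocounts, filters and scalings, the replicate number as a block, no trend, only the compared groups, the library total as a covariate, limma voom on the reads, and each library left out. Some genes of the lists are not reported here by name.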

Additional observations from a re-analysis of the deposited data

How the results depend on the processing

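No result changed direction past the threshold under any alternative. Of the values of the 7 tested genes under the alternatives, 757 kept their side of the threshold, 29 lost their call and 7 gained one. Values that did not pass in either fit count as kept whatever their sign. Some of these changed sign, such as Tsc1 with OHT, at -0.02 in the main fit and up to 0.07 in others. The number of the 7 genes called moved by over 1.5 times with OHT alone, from 4 to 2 with quantile normalization, 2 with the replicate block, 2 with only the compared groups and 1 with the library total as a covariate. With each library left out it ran from 1 to 6 for OHT, from 2 to 4 for IACS, from 3 to 4 between OHT_IACS and OHT, and stayed at 1 between OHT_IACS and IACS and at 0 for the interaction. Over all genes, 3546 were called with OHT, 2351 with the covariate and 2650 to 4123 with a library left out. The counts with a library left out were 951 to 1809 for IACS (main 1548) and 1524 to 2951 between OHT_IACS and OHT (main 2310). For the interaction 14 genes were called, 7 without a filter, 5 with RPKM as deposited, 34 with quantile normalization, 7 with the replicate block, 5 with the covariate, 25 with voom, and 3 to 130 with a library left out, the 130 without OHT replicate 2. The cause was not tested. The replicate numbers were checked for pairing. Deviations of same-numbered samples correlated at -0.172 to 0.104, over 0.1 in 1 of 18 pairs. A sample correlated best with its own number in 12 of 36 checks. No pairing was seen in this way, and the main fit used the numbers only as names. Since the deviations also vary with the library totals, whether same-numbered samples were handled together cannot be told from this check. With an RPKM of at least 5 required, Tsc1 could not be tested. With the replicate block, the OHT calls of Sesn1 (limma adjusted p = 0.053) and Prkaa1 (0.05 after rounding) were lost. Sesn3, Prkab1 and Rragd, at most 3 reads each, could not be compared.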
